A study of Mus musculus with 7 samples.

Results

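The let-7/miR-98 guide strands are the 9 mature microRNAs (miRNAs) mmu-let-7a-5p, mmu-let-7b-5p, mmu-let-7c-5p, mmu-let-7d-5p, mmu-let-7e-5p, mmu-let-7f-5p, mmu-let-7g-5p, mmu-let-7i-5p and mmu-miR-98-5p, where mmu stands for mouse and is left out below. They were chosen by name, and all 9 were found among the 1915 mature miRNA entries counted by small RNA sequencing in mouse colorectum. All 9 also passed the filter on low counts, which kept 878 entries. All mice were wild-type C57BL/6 females, with an age of 7 weeks given for the treatment. The CRC group (M4, M5 and M6) was injected intraperitoneally with 10 mg per kg of the colon carcinogen azoxymethane (AOM). After 5 days they drank water with 2.5% dextran sodium sulfate (DSS), an agent that damages the colonic epithelium, for 7 days, and then plain water for 14 days, a cycle the labels describe as repeated. Their tissue is labelled colorectal cancer at stage T1, day 17. The healthy group (M1, M2 and M3) received 0.9% saline by injection, and whether these mice also drank DSS is not stated in the labels. The labels name 2 libraries of M1 and the table holds 1 column of that name, so each group had 3 profiles, 1 per mouse. No group is labelled as AOM alone or DSS alone, so carcinogen, injury and tumour cannot be told apart from these labels.

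A guide strand is the arm of a miRNA hairpin that is loaded into an Argonaute protein, and its seed, bases 2 to 8, pairs with target messenger RNAs and leads to their repression. The let-7 family is known as a differentiation factor that restrains growth genes such as Ras genes, Myc and Hmga2. Its maturation is blocked by the RNA-binding protein Lin28 in embryonic and some tumour cells. In most adult tissues, the intestine included, mature let-7 is abundant.

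The 9 guides are shown in full because they share 1 seed and differ only in the remaining bases, which limits how surely reads can be assigned to 1 of them. Sequences are 5′ to 3′ as deposited, in DNA letters, with the seed in capitals, and all 9 equal the entries of RefSeq's GRCm38 table.
let-7a-5p: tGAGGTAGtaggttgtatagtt
let-7b-5p: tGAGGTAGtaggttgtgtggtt
let-7c-5p: tGAGGTAGtaggttgtatggtt
let-7d-5p: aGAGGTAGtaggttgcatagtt
let-7e-5p: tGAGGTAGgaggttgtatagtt
let-7f-5p: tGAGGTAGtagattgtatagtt
let-7g-5p: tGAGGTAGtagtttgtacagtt
let-7i-5p: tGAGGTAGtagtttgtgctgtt
miR-98-5p: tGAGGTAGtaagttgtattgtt

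All 9 guides are 22 bases long. Counted from 1 at the 5′ end, let-7c-5p differs from let-7a-5p by A19G, let-7e-5p by T9G and let-7f-5p by G12A. Going from let-7b-5p to let-7c-5p takes the single change G17A. These 4 pairs tie let-7a, let-7b, let-7c, let-7e and let-7f together by single substitutions. How reads with a sequencing error were assigned between such entries is not stated in the sources used here, which makes the split among these 5 guides less certain than their sum. let-7d-5p is the only guide that begins with A. It differs from let-7a-5p by T1A and T16C, let-7g-5p by G12T and T18C, and miR-98-5p by G11A and A19T. let-7i-5p carries 4 changes: G12T, A17G, T18C and A19T.

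The guides come from 12 hairpins in GRCm38, and 3 of the guides (let-7a, let-7c and let-7f) have 2 hairpins each, to which the mature reads cannot be assigned. Mirlet7a-1, Mirlet7f-1 and Mirlet7d lie within 2261 bases on the minus strand of chromosome 13 and overlap exons of the noncoding 6720427I07Rik, with Mirlet7d from 48536012 to 48536114. Mirlet7c-2 (85706603 to 85706697) and Mirlet7b (85707319 to 85707403) lie on chromosome 15 in exons of the noncoding Lncppara. Mirlet7f-2 (151912346 to 151912428) and Mir98 (151913214 to 151913321) share an intron region of Huwe1 on chromosome X. Mirlet7e (17830352 to 17830444) is on chromosome 17 in an intron of Spaca6, beside Mir99b and Mir125a. Mirlet7g (106178840 to 106178927) is on chromosome 9 in an intron of Wdr82. Mirlet7i (122985640 to 122985724) is on chromosome 10 and overlaps an exon of D630033A02Rik, which is annotated as a transcribed pseudogene. Mirlet7a-2 lies on chromosome 9 (41536716 to 41536811) with Mir100 and Mir125b-1, and Mirlet7c-1 on chromosome 16 (77599657 to 77599750) with Mir99a and Mir125b-2.

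Total miRNA reads per mouse ran from 3206127 in M6 to 15280434 in M2, and the 9 guides held 123118 to 505913 of them. Counting error was therefore small beside the differences between mice. The profiles differed within the groups as well as between them. Summed over 6 smooth muscle miRNAs, M1 and M2 had 41.6% and 48.0% of their reads, M3 and M4 had 21.1% and 20.7%, and M5 and M6 had 7.07% and 6.55%. As a share of reads, every CRC mouse thus lay below every healthy mouse, with M3 and M4 close together. On the TMM scale explained below this did not hold, as M4 (218633 CPM) lay above M3 (190917 CPM). Summed intestinal epithelium miRNAs (9 markers, none at 0 in any mouse) took 12.4% to 17.7% of reads in the 6 mice. On the TMM scale they differed more. They had 197836 CPM in M1, 219812 in M2 and 112463 in M3, against 166356 in M4, 88425 in M5 and 120524 in M6. Summed leukocyte miRNAs (5 markers) took 1.70% in M3 against 0.185% to 1.21% in the other mice. The summed shares of reads were 0.590% to 0.967% for fibroblast, 0.787% to 1.97% for endothelial, 0.0164% to 0.286% for red blood cell and 0.0138% to 0.0282% for nerve miRNAs. In bulk tissue, fewer cells of a type and less RNA per cell cannot be told apart, and the part of these cell types in the let-7 values was not tested.

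Levels below are CPM, read counts scaled to a common library total, with library sizes adjusted by trimmed mean of M-values (TMM), a scaling that assumes most miRNAs do not differ. let-7f-5p had the highest healthy mean, 9006 ± 1202 CPM (SD, n = 3). let-7g-5p followed with 8169 ± 2449 CPM, let-7a-5p with 8107 ± 1290 CPM, let-7c-5p with 7369 ± 876 CPM and let-7d-5p with 6649 ± 2343 CPM (SD, n = 3 each). Each of these 5 guides overlapped the next in its range. Compared within mice, let-7f-5p was above let-7g-5p, and let-7a-5p above let-7c-5p, in all 3 healthy mice. let-7g-5p was above let-7a-5p, and let-7c-5p above let-7d-5p, in only 2 of 3, so the full order of the 5 is not set. let-7b-5p had 4813 ± 694 CPM, let-7i-5p 3476 ± 214 CPM, let-7e-5p 1873 ± 412 CPM and miR-98-5p 326 ± 51.1 CPM (SD, n = 3 each). The range of let-7b-5p still overlapped that of let-7d-5p, and from let-7b-5p down each healthy range lay apart from the next. let-7i-5p, let-7e-5p and miR-98-5p held ranks 7, 8 and 9 in all 6 mice. let-7f-5p was the top guide in 5 mice, and in M4 let-7c-5p was. Because all guides have equal length, these levels can be set side by side per length, but how well each sequence is ligated and read was not tested.

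**Figure D1:**
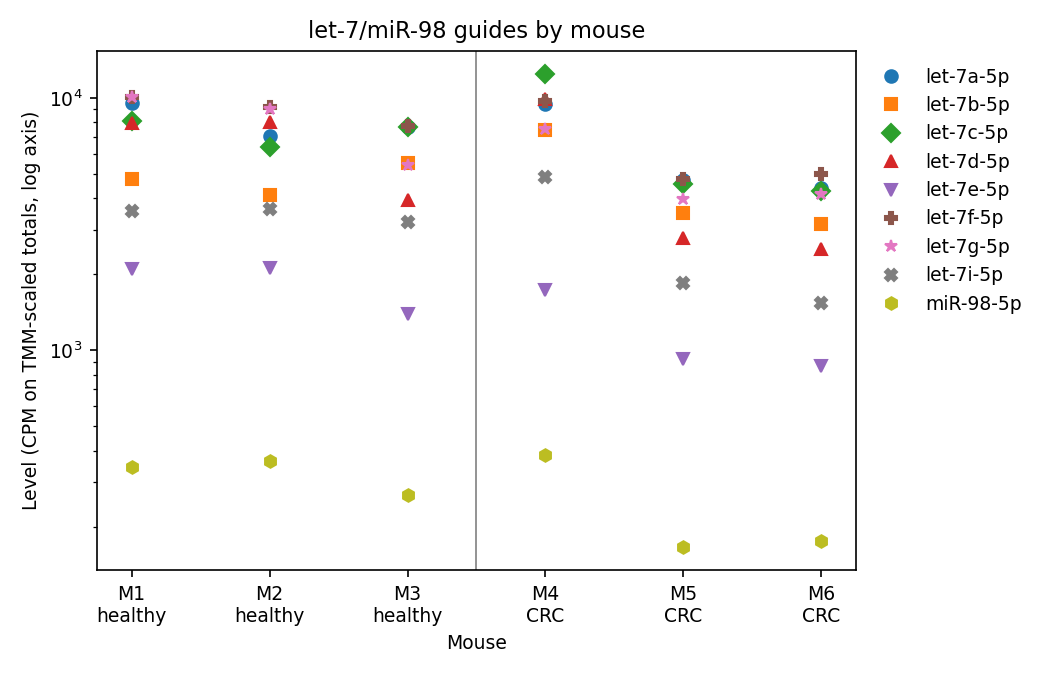
Level of each of the 9 guides (y axis, CPM on TMM-scaled totals, log axis) in each mouse (x axis, 3 healthy mice left of the line and 3 CRC mice right of it). M5 and M6 had the lowest values for every guide, while M4 lay above M3 for every guide.

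The design asks whether the guides differ between CRC and healthy colorectum. None of the 9 guides reached a Benjamini-Hochberg adjusted p under 0.05 in the quasi-likelihood test of edgeR over all 878 miRNAs, against 2.28% of all tested miRNAs. At an unadjusted p under 0.05 there were also 0 of 9 guides, against 23.2% of all tested. DESeq2 called 0 of the 9 (12.6% of all tested) and limma-voom 0 (0% of all tested). The log2 fold changes of the guides ran from -0.68 to -0.03 with a median of -0.39, beside a median of -0.03 over all tested miRNAs. All 9 values were negative on the TMM scale, beside 51.5% of all tested miRNAs, and all 9 were positive with total counts as the scale. There the guides' median was 0.23 beside 0.62 over all tested miRNAs. The change of scale moved all miRNAs together, so the guides' lower median there is not separate evidence. The distance between the 2 medians depended on the fit. They were -0.85 and -0.81 with the trend over GC content removed and TMM kept, and -0.41 and 0.31 without the filter. No guide had all CRC mice below all healthy mice, against 12.4% of all tested miRNAs.

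let-7e-5p, made beside miR-99b and miR-125a, had the lowest fold change. Its level in CPM was 2096 (M1), 2126 (M2) and 1398 (M3), against 1727 (M4), 921 (M5) and 864 (M6). The groups overlapped only through M4, which lay above M3. The log2 fold change was -0.68 (SE 0.42, adjusted p = 0.347, edgeR). For let-7g-5p, from an intron of Wdr82, the level in CPM was 10069 (M1), 9033 (M2) and 5406 (M3), against 7502 (M4), 3974 (M5) and 4179 (M6). M5 and M6 were below every healthy mouse and M4 again was above M3. The value was -0.65 (SE 0.41, adjusted p = 0.357, edgeR).

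let-7f-5p and let-7a-5p, each with 1 of its hairpins beside that of let-7d on chromosome 13, were the most abundant guides in M5 and M6. The level of let-7f-5p in CPM was 10100 (M1), 9199 (M2) and 7719 (M3), against 9758 (M4), 4787 (M5) and 5017 (M6). The level of let-7a-5p in CPM was 9557 (M1), 7088 (M2) and 7675 (M3), against 9452 (M4), 4730 (M5) and 4415 (M6). For both, M4 lay inside the healthy range and the other CRC mice below it. The log2 fold changes were -0.47 (SE 0.39, adjusted p = 0.50, edgeR) for let-7f-5p and -0.39 (SE 0.40, adjusted p = 0.589, edgeR) for let-7a-5p.

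The level of let-7d-5p in CPM was 7981 (M1), 8023 (M2) and 3944 (M3), against 9886 (M4), 2798 (M5) and 2530 (M6). M3 was thus apart from the other healthy mice and M4 apart from the other CRC mice, in opposite directions. Its log2 fold change was -0.39 (SE 0.57, adjusted p = 0.710, edgeR), with the largest standard error of the 9.

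let-7c-5p and let-7b-5p, which have neighbouring hairpins on chromosome 15, had the log2 fold changes nearest to 0. The level of let-7c-5p in CPM was 8074 (M1), 6389 (M2) and 7645 (M3), against 12401 (M4), 4570 (M5) and 4291 (M6). The level of let-7b-5p in CPM was 4780 (M1), 4136 (M2) and 5522 (M3), against 7473 (M4), 3514 (M5) and 3152 (M6). For both guides M4 was the highest of all mice and M5 and M6 were the lowest. The log2 fold changes were -0.06 (SE 0.46, adjusted p = 0.960, edgeR) and -0.03 (SE 0.42, adjusted p = 0.979, edgeR). These intervals are wide, so the values do not show that the groups are alike.

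The level of let-7i-5p in CPM was 3554 (M1), 3641 (M2) and 3234 (M3), a narrow healthy range, against 4848 (M4), 1854 (M5) and 1536 (M6). The least abundant guide was miR-98-5p, whose level in CPM was 346 (M1), 364 (M2) and 268 (M3), against 384 (M4), 166 (M5) and 176 (M6). In both guides the healthy mice lay between M4 and the other CRC mice. The log2 fold changes were -0.34 (SE 0.47, adjusted p = 0.699, edgeR) for let-7i-5p and -0.43 (SE 0.45, adjusted p = 0.598, edgeR) for miR-98-5p.

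Since the 9 guides share a seed, their sum describes how much of this seed was present. The level of the summed guides in CPM was 56556 (M1), 49999 (M2) and 42811 (M3), against 63430 (M4), 27314 (M5) and 26159 (M6). M4 had the most and M6 the least, so the CRC range enclosed the healthy range. The healthy mean was 49788 ± 6875 CPM and the CRC mean 38968 ± 21193 CPM (SD, n = 3 each). The log2 fold change of the sum was -0.35 (SE 0.41), smaller than its standard error. As a share of all miRNA reads the order of the mice differed: 4.07% in M1, 2.91% in M2 and 4.73% in M3, against 6.02% in M4, 4.23% in M5 and 3.84% in M6. On that scale M2, the mouse with the most smooth muscle reads, had the smallest share. M1, with 41.6% smooth muscle reads, nevertheless had a larger share than M6, with 6.55%. The part of smooth muscle reads in the guide share was not tested. Scaling by total counts alone moved the median log2 fold change of all tested miRNAs by 0.65 and turned the value of the sum to 0.27 (SE 0.29), with all 9 guides positive. The sum of let-7a, let-7b, let-7c, let-7e and let-7f, which does not depend on how reads were split among them, had a log2 fold change of -0.28 (SE 0.40).

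**Figure D2:**
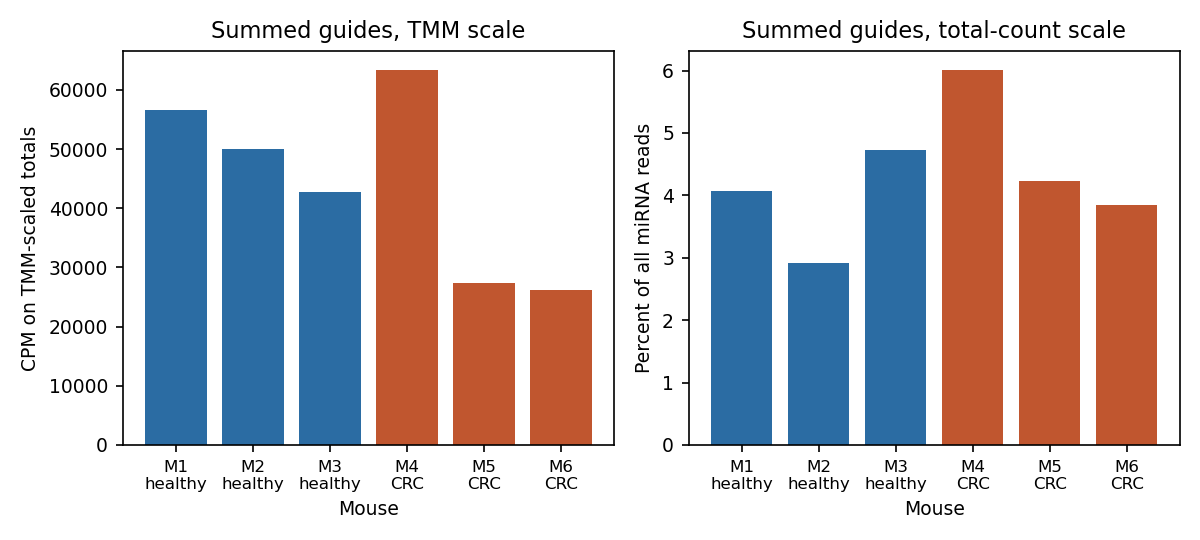
Summed reads of the 9 guides in each mouse (x axis), as CPM on TMM-scaled totals on the left and as percent of all miRNA reads on the right (y axes from 0; blue bars healthy, orange bars CRC). M4 is highest on both scales, while M5 and M6 are lowest at left and within the healthy range at right.

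The comparison depended on M3 and M4, 1 mouse from each group. Every guide was higher in M4 than in M3, by 0.30 log2 units for let-7a-5p and let-7e-5p up to 1.33 for let-7d-5p. On the TMM scale every guide was lower in the mean of M5 and M6 than in the mean of M1 and M2, with log2 differences from -0.42 for let-7b-5p to -1.59 for let-7d-5p, while as a share of all reads the summed guides of M5 (4.23%) and M6 (3.84%) were both above M2 (2.91%) and lay on either side of M1 (4.07%). Without M3 and M4, an alternative chosen with earlier results of these data known, edgeR on the TMM scale called all 9 guides lower, with log2 fold changes from -0.70 (let-7b-5p) to -1.87 (let-7d-5p). In that comparison of 2 mice with 2, 27.4% of all 1082 tested miRNAs were called lower and 53.2% in either direction. With M1 and M2, M3 and M4, and M5 and M6 as blocks, pairs that rest on mouse numbers alone, the difference is that of M4 against M3, 1 mouse with 1. In that fit 1 guide, let-7d-5p, was called and was higher, against 1.48% of all tested miRNAs called higher and 3.08% in either direction. The spread in that fit came from the 4 other mice, so the call compares 2 single profiles and says nothing about CRC against healthy. Leaving out M4 alone gave 6 of 9 guides an unadjusted p under 0.05, against 39.9% of all miRNAs tested there, and 0 an adjusted p under 0.05, against 19.9%. The labels give no batch, and what sets M3 and M4 apart from their groups was not tested.

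**Figure D3:**
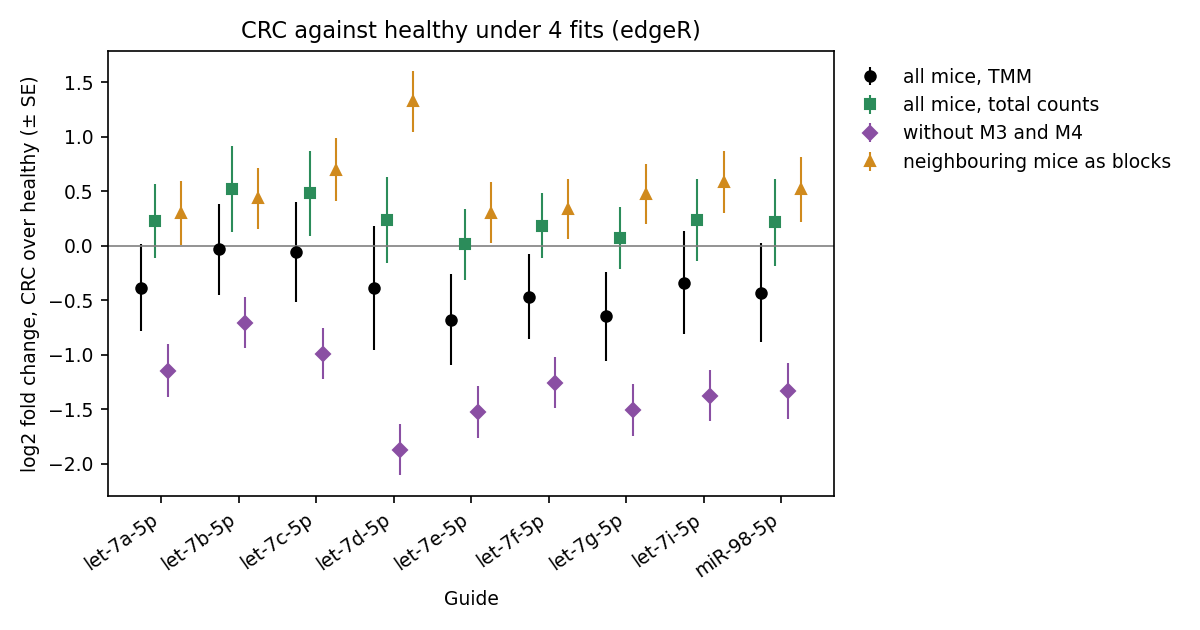
log2 fold change of CRC over healthy with its standard error (y axis) for each guide (x axis) in 4 edgeR fits: all mice on the TMM scale (black), all mice on total counts (green), without M3 and M4 (purple) and with neighbouring mice as blocks (orange, M4 against M3 with the spread of the 4 other mice). The 9 values are all negative in the black and purple fits and all positive in the green and orange ones.

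The share of each guide within the summed guides does not depend on the scaling between libraries. let-7b-5p made up 8.45% of the summed guides in M1 and 8.27% in M2, while M3 had 12.9%, M4 11.8%, M5 12.9% and M6 12.0%. let-7c-5p made up 14.3% in M1, 12.8% in M2 and 17.9% in M3, against 19.5% in M4, 16.7% in M5 and 16.4% in M6. For both guides M1 and M2 had the lowest shares and M3 lay with the CRC mice. let-7g-5p ran the other way, with 17.8% in M1, 18.1% in M2 and 12.6% in M3, against 11.8% in M4, 14.5% in M5 and 16.0% in M6.

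let-7d-5p divided the mice differently: it made up 14.1% in M1, 16.0% in M2 and 15.6% in M4, against 9.21% in M3, 10.2% in M5 and 9.67% in M6. Set against let-7f-5p, whose hairpin Mirlet7f-1 is a neighbour of Mirlet7d, let-7d-5p had from 0.504 reads per let-7f-5p read in M6 to 1.01 in M4. The shares of let-7f-5p were 17.5% to 19.2% in 5 mice and 15.4% in M4. Those of let-7a-5p were 14.2% to 17.9%, of let-7i-5p 5.87% to 7.64%, of let-7e-5p 2.72% to 4.25% and of miR-98-5p 0.605% to 0.728%. Between the groups the largest differences of means were 2.59 percentage points for let-7c-5p (exact permutation p = 0.3, two-sided) and 2.36 for let-7b-5p (exact permutation p = 0.4). No share had the groups apart, and after Benjamini-Hochberg adjustment over the 9 guides the lowest exact permutation p was 0.9. With 3 mice against 3 this test cannot go below 0.1.

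**Figure D4:**
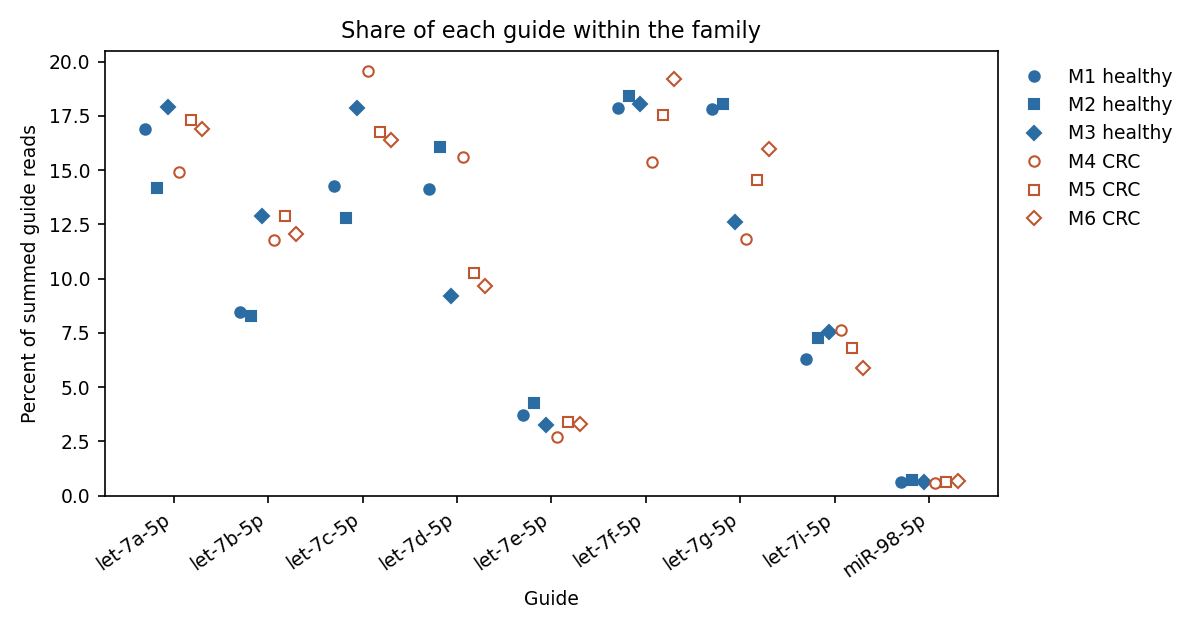
Share of each guide (x axis) in the summed guide reads of each mouse (y axis, percent; filled blue symbols healthy, open orange symbols CRC). let-7b-5p and let-7c-5p have their lowest shares in M1 and M2, and let-7d-5p splits into M1, M2 and M4 above and M3, M5 and M6 below.

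The hairpins' other arms, the passenger strands, were measured apart from the guides and were not used to choose them. Of the 12 passenger entries, all tested, edgeR called 0, against 2.28% of all tested miRNAs, and 0 had an unadjusted p under 0.05, against 23.2%. Their log2 fold changes ran from -0.84 (let-7g-3p, SE 0.46) to 0.77 (let-7i-3p, SE 0.65), with 8 negative (51.5% of all tested were) and a median of -0.13 on the TMM scale. With total counts as the scale 1 was negative and the median was 0.48, beside a median of 0.62 over all tested miRNAs. Summed, they came to 1.53 passenger reads per 100 guide reads in M1, 1.54 in M2 and 1.36 in M4, against 3.04 in M3, 2.79 in M5 and 2.97 in M6. This again placed M4 with M1 and M2, and M3 with M5 and M6. The entry let-7d-3p weighed most in that sum, with 2028 (M6) to 6309 (M3) reads per mouse. Every other passenger entry had at most 1477 reads in any mouse. The 5p arm was the more abundant one in every mouse for all 9, as the name guide implies.

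Guide reads per passenger read were lowest for let-7d and miR-98 in every mouse. let-7d had 14.6 in M1, 16.6 in M2 and 20.2 in M4, against 5.68 in M3, 6.83 in M5 and 5.87 in M6. This split of the mice was not particular to let-7d. It also held for let-7a (144 to 177 against 64.2 to 87.7), let-7b, let-7c, let-7f, let-7i and miR-98, and not for let-7e and let-7g. The passenger of let-7d varied less than its guide, from 410 CPM in M5 to 695 CPM in M3. The guide ranged more widely, from 2530 CPM in M6 to 9886 CPM in M4. let-7i had 357 guide reads per passenger read in M1, 282 in M2 and 64.6 in M3, against 139 in M4, 31.0 in M5 and 51.3 in M6. There the passenger let-7i-3p differed, with 9.95 CPM in M1 and 12.9 CPM in M2 against 30.0 to 59.9 CPM in the other mice. Summed leukocyte miRNAs were also lowest in M1 and M2, at 3840 and 3184 CPM, against 6897 to 15412 CPM in the other mice. Among these markers miR-142a-3p and miR-155-5p followed that order. miR-150-5p did not, with 1171 CPM in M1 against 610 in M5 and 866 in M6, nor did miR-142a-5p, with 630 in M1 against 520 in M5. The remaining leukocyte marker, miR-223-3p, did not either, as it was lower in M6 than in M2. Summed red blood cell miRNAs were lowest in M1 and M2 too, at 356 and 282 CPM against 469 to 1843 CPM. The part of either cell type in the let-7i ratio was not tested.

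The mean log2 ratio of let-7i was 7.54 ± 1.33 in healthy and 5.91 ± 1.10 in CRC mice (SD, n = 3 each), a difference of -1.62 (exact permutation p = 0.2, two-sided). For miR-98 the ratio was 11.4 in M1, 15.5 in M2 and 10.4 in M3, against 18.2 in M4, 5.35 in M5 and 5.16 in M6, and the difference of the log2 means was -0.62 (exact permutation p = 0.4). let-7g had the highest ratio of any guide in any mouse, 456 in M4. After adjustment over the 9 guides the lowest exact permutation p was 0.9.

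**Figure D5:**
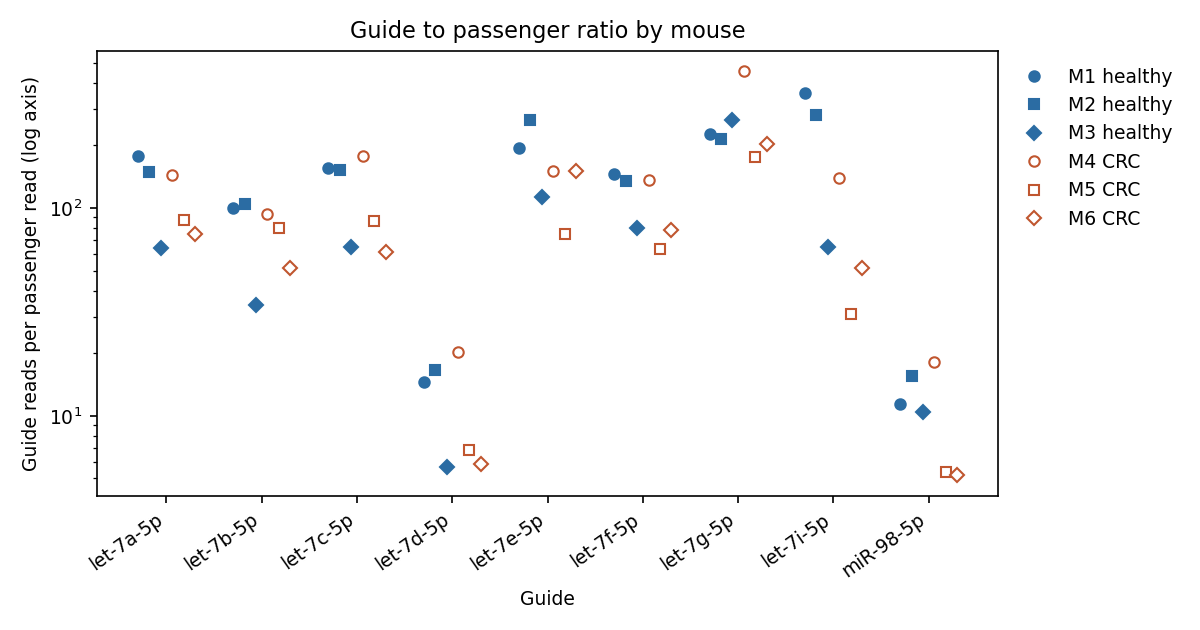
Guide reads per passenger read (y axis, log axis) for each guide (x axis) and mouse (filled blue symbols healthy, open orange symbols CRC). The ratio of let-7d is 5.68 to 6.83 in M3, M5 and M6 and 14.6 to 20.2 in M1, M2 and M4, and that of let-7i is highest in M1 and M2. All guides but let-7e and let-7g have M1, M2 and M4 above M3, M5 and M6.

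Passengers of let-7a and let-7c are shown because these 2 cannot be told apart by sequence, and those of let-7i and let-7d because their ratios are described above, here with bases 2 to 8 in capitals as before.
let-7a-1-3p: cTATACAAtctactgtctttcc
let-7c-2-3p: cTATACAAtctactgtctttcc
let-7i-3p: cTGCGCAAgctactgccttgct
let-7d-3p: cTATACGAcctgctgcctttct

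The 2 entries with identical sequence had near-equal counts, from 0.832 to 1.12 let-7a-1-3p reads per let-7c-2-3p read, so the ratios of let-7a and let-7c to their passengers share reads of unknown origin. Pooled, let-7a and let-7c had a log2 ratio of 6.88 ± 0.75 in healthy and 6.62 ± 0.64 in CRC mice (SD, n = 3 each). M3 had the lowest pooled value, 6.01, and M6 the next, 6.08. The passengers of the second hairpins, let-7a-2-3p and let-7c-1-3p, had at most 22 reads in any mouse.

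Besides the 9 guides, 2 entries of the table carry the same seed, and let-7j is close in sequence to let-7i-5p but differs from it in the seed by G8T and is 2 bases longer.
let-7k: tGAGGTAGgaggttgtgtg
miR-1961: tGAGGTAGtagttagaa
let-7j: tGAGGTATtagtttgtgctgttat
let-7k had 21 to 76 reads and miR-1961 0 to 5 reads per mouse, so the 9 guides held nearly all reads of this seed. miR-1961 did not pass the filter on low counts. The log2 fold change was 0.14 for let-7k (SE 0.54, adjusted p = 0.896, edgeR). let-7j had 115 to 265 CPM. Its log2 fold change was -0.33 (SE 0.43, adjusted p = 0.683, edgeR), beside -0.34 for let-7i-5p. Per 100 let-7i-5p reads there were 5.46 to 8.37 let-7j reads in the 6 mice. Whether part of the let-7j count comes from let-7i reads was not tested.

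Some let-7 hairpins are made together with miR-99, miR-100 and miR-125, families that carry other seeds. Of these 5 cluster partners 0 passed edgeR's test, against 2.28% of all tested miRNAs, and 1 of 5 was at an unadjusted p under 0.05, against 23.2%. All 5 log2 fold changes were negative on the TMM scale, against 51.5% of all tested, with a median of -0.76, and with total counts as the scale miR-99b-5p turned to 0.0738 and the median was -0.14. For miR-100-5p, next to Mirlet7a-2, the level in CPM was 1613 (M1), 1829 (M2) and 347 (M3), against 659 (M4), 242 (M5) and 188 (M6). Its log2 fold change was -1.80 (SE 0.69, adjusted p = 0.156, edgeR). miR-99a-5p, next to Mirlet7c-1, had 2925 CPM (M1), 3532 CPM (M2) and 790 CPM (M3), and the CRC mice had 912 to 1732 CPM. For both, M3 was far below M1 and M2, while the levels of let-7a-5p and let-7c-5p in M3 lay between those in M1 and M2. Beside Mirlet7e, the log2 fold change was -0.45 for miR-99b-5p (SE 0.48) and -0.76 for miR-125a-5p (SE 0.43), and it was -0.66 for miR-125b-5p (SE 0.46).

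Among themselves the guides varied together to different degrees. Over the 36 pairs the Pearson correlation of log2 CPM over the 6 mice had a median of 0.924, from 0.506 for let-7b-5p with let-7g-5p to 0.987 for let-7f-5p with miR-98-5p. let-7b-5p and let-7c-5p had 0.977. The guides share the scaling factors of these 6 profiles, so the correlations only describe them. Of 265 other miRNAs with a mean of at least 50 CPM, those most like the summed guides were miR-379-5p (Pearson 0.983), miR-674-5p (0.979), miR-484 (0.978), miR-27b-3p (0.977) and miR-28a-3p (0.969), all over 6 mice. Like the sum, these 5 were lowest in M5 and M6, which follows from choosing them by that correlation. For miR-484 the level in CPM was 3122 (M1), 3342 (M2) and 2096 (M3), against 3534 (M4), 1285 (M5) and 1289 (M6).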

How the data were processed

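Small RNA of mouse colorectum was sequenced on an Ion Proton, per the labels' protocols. The authors aligned reads with BWA to mm10 (GRCm38), per the submitters' processing notes, and deposited whole-number counts per mature miRNA, not normalized, per the file headers. The counting of multiply matching or mismatched reads was not stated in the sources used here. M1 is 1 column for a mouse with 2 labelled libraries. Totals were 3206127 to 15280434 reads.

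The members, lists and alternatives were chosen with earlier results of these data known. The texts name the 9 members, entries with their seed, their passengers, 5 cluster partners, and the 5 miRNAs outside these hairpins with the highest Pearson correlation with the summed guides; other features were chosen after their values were seen. The whole count table was fitted with edgeR 4.0.16 (R 4.3.3): TMM factors (0.582 to 1.55), filterByExpr by group, glmQLFit with robust=TRUE, glmQLFTest, two-sided, Benjamini-Hochberg over 878 miRNAs at 0.05. The standard error was the log2 fold change divided by the square root of F. The summed guides were fitted in place of the 9 entries with the same factors and got no p-value. Shares, and log2 ratios of guide to passenger counts with 0.5 added, were compared by exact permutation (scipy 1.17.1). Alternatives were other scalings, filters and tools (DESeq2 1.42.0, limma 3.58.1), leaving out mice, blocks of neighbouring mice, thinning to 3206127 reads and removal of the GC trend within each profile (loess, span 0.75). Recomputing TMM factors with the guides as 1 entry and pooling let-7a with let-7c were added after seeing the data. The edgeR script was tested on simulated data. Hairpin positions come from RefSeq's table and overlaps from GENCODE M21, both GRCm38.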

Additional observations from a re-analysis of the deposited data

How the results depend on the processing

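No paired analysis was possible because nothing in the labels matches mice of 1 group with mice of the other. With all 6 mice, the share of all tested miRNAs called ran from 0% to 12.6% (DESeq2) over the settings. Without 1 mouse it ran from 0% to 19.9% (without M4). It was 0% in limma-voom, with at least 50 CPM, with the GC trend removed and TMM kept, and without M1, M5 or M6. In those fits no guide could be counted as called. Beside these shares, the number of guides called was 0 with all 6 mice, under every scaling, filter, tool, thinning and GC setting, and without any 1 mouse (range 0 to 0). It was 9 without M3 and M4, where 53.2% of all tested miRNAs were called (27.4% lower) and the summed guides had a log2 fold change of -1.28. It was 1 with neighbouring mice as blocks (3.08% of all tested), a setting that compares M4 with M3 alone. With all mice and TMM the sum had -0.35, and from -0.80 to -0.13 without 1 mouse. It was -0.22 with at least 50 CPM, -0.19 with totals without miR-143 and miR-145a, -0.13 after thinning and -0.0691 with the GC trend removed and TMM recomputed. It was -0.78 with the GC trend removed and TMM kept, which moved the median of all tested miRNAs to -0.81. Scaling by total counts moved all miRNAs together: the median of all tested went from -0.03 to 0.62 and that of the guides from -0.39 to 0.23. With total counts alone the values were 0.27 for the sum, 0.23 for let-7a-5p, 0.52 for let-7b-5p, 0.48 for let-7c-5p, 0.24 for let-7d-5p, 0.0141 for let-7e-5p, 0.18 for let-7f-5p, 0.0706 for let-7g-5p, 0.24 for let-7i-5p and 0.22 for miR-98-5p. With blocks they were 0.57, 0.30, 0.44, 0.70, 1.33, 0.30, 0.34, 0.47, 0.58 and 0.52 in that order. The values of let-7b-5p and let-7c-5p, near 0, also turned positive with totals without miR-143 and miR-145a (0.12 and 0.0750), with at least 50 CPM (0.11 and 0.0599), after thinning (0.18 and 0.14) and with the GC trend removed and TMM recomputed (0.15 and 0.20). Without 1 mouse let-7b-5p ran from -0.44 to 0.19 and let-7c-5p from -0.64 to 0.21. The cause was not tested.

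Differences of shares, in percentage points, changed sign for some guides without 1 mouse: let-7a-5p from -1.05 to 0.83, let-7d-5p from -3.25 to 0.17, let-7f-5p from -1.64 to 0.26, let-7i-5p from -0.71 to 0.18 and miR-98-5p from -0.0484 to 0.0101. Without M3 and M4 let-7f-5p had 0.23. Differences of log2 guide to passenger ratios did so for let-7a-5p (-0.73 to 0.00042), let-7b-5p (-0.49 to 0.32), let-7c-5p (-0.66 to 0.10), let-7d-5p (-0.81 to 0.0810) and let-7g-5p (-0.31 to 0.37). Without M3 and M4 let-7b-5p had -0.67 and let-7g-5p -0.23, and after thinning let-7g-5p had -0.0075. The let-7i ratio stayed negative without 1 mouse (-2.39 to -1.14). So did those of let-7e-5p (-0.94 to -0.27), let-7f-5p (-0.72 to -0.17) and miR-98-5p (-1.22 to -0.31). The summed guides had 123118 to 505913 reads per mouse, while let-7a-2-3p and let-7c-1-3p rest on few reads. Every healthy mouse had more total reads than every CRC mouse. Thinning to equal totals moved the log2 fold change of the summed guides from -0.35 to -0.13. The median of all tested miRNAs moved from -0.03 to 0.09 with it.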
